A study of Mus musculus with 12 samples.

Results

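Small leucine-rich proteoglycans (SLRPs) are secreted matrix proteins, and the QIAseq targeted panel of mouse extracellular matrix (ECM) and cell adhesion genes measured 5 of them that were followed here, Bgn, Dcn, Aspn, Fmod and Prelp. They were chosen by name after Ensembl identifiers were matched to mouse symbols, and with earlier results of these data known. They are 5 of the 420 genes listed. Lum, another SLRP gene listed, was not among the 5 and is described below. All 5 were among the 238 genes tested, those that reached 10 normalized counts in 3 or more libraries. The cells were pancreatic stellate cells (PSCs), the fibroblast-like cells that lay down matrix in the pancreas, on a C57BL/6 background and with the labelled genotype PKN2 WT or PKN2 KO. PKN2 is a serine/threonine kinase, and the comparison addresses how its loss changes the matrix genes of PSCs. Cells of each genotype were kept for 72 h with vehicle or with TGF-β1 at 5 ng/ml, which gave 4 groups of 3 libraries named A, B and C. WT PSCs with vehicle, PKN2 KO PSCs with vehicle, WT PSCs with TGF-β1 and PKN2 KO PSCs with TGF-β1 are named so throughout.

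The KO cells came from the pancreas of 1 male Rosa26 CreERT2 PKN2 fl/fl mouse, were immortalised with SV40 large T antigen, and lost PKN2 when 4-hydroxytamoxifen activated Cre, which is expressed from the Rosa26 locus in all cells. Whether the WT PSCs were the same cells without tamoxifen is not given in the sources used here. The series text speaks of 3 lines of each genotype, the methods of separate dishes, and the labels do not tie a library to a line or dish. The p-values therefore measure the spread between these libraries, which may be technical. Neither Pkn2 nor Acta2 was among the genes listed, so the deletion was not checked at the level of its transcript.

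SLRPs share a core of leucine-rich repeats that binds collagen fibrils and sets how thick and how evenly spaced they become, and several of them also bind TGF-β. Biglycan (Bgn), decorin (Dcn) and asporin (Aspn) belong to class I. Biglycan and decorin carry chondroitin or dermatan sulfate chains, whereas asporin has a run of aspartate residues and no such chain. Fibromodulin (Fmod) and PRELP (Prelp) belong to class II with lumican (Lum). Fibromodulin carries keratan sulfate and helps collagen cross-linking, and PRELP has a basic end that binds heparan sulfate and is thought to anchor basement membranes to the connective tissue beneath. Activated stellate cells and fibroblasts are a main source of these proteins in fibrotic tissue.

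The genes lie in clusters of relatives (GRCm38, GENCODE annotation). Prelp (ENSMUSG00000041577, chr1:133910304-133921414, minus strand) and Fmod (ENSMUSG00000041559, chr1:134037254-134048277, plus strand) are 115.8 kb apart with 0 protein-coding genes annotated between them. Aspn (ENSMUSG00000021388, chr13:49544443-49567565, plus strand) follows its relative Ecm2 by 11.7 kb. Dcn (ENSMUSG00000019929, chr10:97479609-97518143, plus strand) precedes Lum by 47.0 kb, and Bgn (ENSMUSG00000031375, chrX:73483602-73495933, plus strand) stands apart on the X chromosome.

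The promoters of Fmod, Prelp and Aspn, the members that differed between genotypes, are shown with motifs of factors that act in TGF-β and YAP signalling. Each is the 250 bases before the RefSeq start in GRCm38.p6, written 5′ to 3′ on the gene's strand, with matches to the TEAD motif GGAATG, the SMAD motif CAGAC or the AP-1 motif TGACTCA, on either strand, in capitals. They lie at chr1:134037004-134037253 (plus strand) for Fmod, chr1:133921402-133921651 (minus strand) for Prelp and chr13:49544193-49544442 (plus strand) for Aspn.
Fmod: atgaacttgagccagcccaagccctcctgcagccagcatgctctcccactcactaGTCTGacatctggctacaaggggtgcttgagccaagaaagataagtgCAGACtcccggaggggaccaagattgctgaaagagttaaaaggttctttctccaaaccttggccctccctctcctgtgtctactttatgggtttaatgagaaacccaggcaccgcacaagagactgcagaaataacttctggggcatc
Prelp: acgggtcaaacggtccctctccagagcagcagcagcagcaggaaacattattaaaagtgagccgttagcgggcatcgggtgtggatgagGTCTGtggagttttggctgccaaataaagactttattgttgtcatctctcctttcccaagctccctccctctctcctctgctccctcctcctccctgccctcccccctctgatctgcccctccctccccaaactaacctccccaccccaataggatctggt
Aspn: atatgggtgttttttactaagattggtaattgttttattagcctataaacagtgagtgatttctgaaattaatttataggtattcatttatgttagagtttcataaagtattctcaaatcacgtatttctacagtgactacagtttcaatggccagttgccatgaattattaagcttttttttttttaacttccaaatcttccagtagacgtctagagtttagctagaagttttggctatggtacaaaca
The capitals are SMAD matches only. Fmod had one as printed, 148 to 144 bases before the start, and one on the other strand, 195 to 191 bases before it, and Prelp had one on the other strand, 161 to 157 bases before it. No match lay in the Aspn window or in that of Bgn, and none overlapped another. Of the 32851 mouse promoter windows of the same length, 42.2% held the SMAD motif, 12.6% the TEAD motif and 4.46% the AP-1 motif. A match is a description of the letters and not a bound site. GC content was 51.2% for Fmod, 55.6% for Prelp, 30% for Aspn and 64.4% for Bgn. Of the 5 members, 4 had a promoter entry, all but Dcn.

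The libraries held 1074095 to 1473153 counts each. Read depth was close to even, but the value of 1 read after normalization to reference genes was 0.676 to 0.860 in the 4 replicate B libraries and 0.961 to 1.37 in the 8 others. Replicate B was accordingly the lowest library of its group in normalized counts in 4 of 4 groups for Bgn and Fmod and in 3 of 4 for Dcn, Aspn and Prelp. Relative to the total counts of a library it was the lowest in 3 of 4 groups for Bgn, in 2 of 4 for Dcn, Fmod and Prelp, and in 0 of 4 for Aspn. All 8 fibroblast markers on the panel passed the filter, with summed normalized counts of 255084 to 563446. Epithelial markers passed for 0 of 8 genes and glial markers for 0 of 4, with sums of at most 50.9 and 6.08. Scaling of the libraries moved all genes together. Over the 238 genes, the median change between genotypes was, on the log2 scale, 0.21 in vehicle and 0.13 with TGF-β1, and 0.00 and -0.06 with TMM scaling. That of TGF-β1 against vehicle was 0.00 in WT and -0.14 in PKN2 KO PSCs. With total count scaling these were -0.25 and -0.34. The balance of calls moved too. In vehicle 26 genes were called higher and 7 lower in PKN2 KO PSCs. These counts were 20 and 13 with TMM, 19 and 20 under median of ratios scaling, and 34 and 10 with total count scaling. With TGF-β1 they were 21 and 15, but 21 and 34, 25 and 30, and 42 and 23 with TMM, median of ratios and total count scaling. For TGF-β1 in WT PSCs 57 were higher and 64 lower, but 54 and 95 with total count scaling, and of called interactions 2 were positive and 6 negative, but 1 and 7 on that scale. Each group enters 2 of the 4 comparisons, so these are not independent of each other.

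Bgn, biglycan, had similar levels in the 4 groups. Its normalized counts in replicates A, B and C were 128446, 92315 and 112019 in WT PSCs with vehicle, and 128310, 98283 and 136237 in PKN2 KO PSCs with vehicle. With TGF-β1 they were 133716, 87487 and 113571 in WT and 175416, 100273 and 140233 in PKN2 KO PSCs. The ranges of the 4 groups overlapped, and Bgn alone took 8.09% to 10.4% of the counts of each library.

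Dcn was counted at low depth and depended on TGF-β1. In vehicle its normalized counts were 26.0, 6.08 and 32.5 in WT and 35.2, 15.5 and 55.1 in PKN2 KO PSCs, from 9 to 33 and 22 to 52 reads per library. With TGF-β1 they were 1.18, 0.790 and 0.961 in WT PSCs, which is exactly 1 read in each library, and 2.74, 3.44 and 4.88 in PKN2 KO PSCs, from 2 to 4 reads. Every library with TGF-β1 was below every library with vehicle.

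Aspn separated the genotypes with and without TGF-β1. Its normalized counts were 162, 152 and 220 in WT PSCs with vehicle and 359, 394 and 481 in PKN2 KO PSCs with vehicle. With TGF-β1 they were 304, 217 and 248 in WT and 512, 402 and 467 in PKN2 KO PSCs. All 6 PKN2 KO libraries lay above all 6 WT libraries.

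Fmod was highest where both changes were present. Its normalized counts were 20.1, 9.46 and 10.8 in WT PSCs with vehicle, 78.5, 28.3 and 57.2 in PKN2 KO PSCs with vehicle, and 50.7, 22.9 and 23.1 in WT PSCs with TGF-β1. PKN2 KO PSCs with TGF-β1 had 376, 146 and 231, and the lowest of these libraries was above every library of the other groups.

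Prelp spanned the widest range of the 5 genes on the log scale. Its normalized counts were 1279, 591 and 970 in WT PSCs with vehicle and 3204, 2325 and 3379 in PKN2 KO PSCs with vehicle. With TGF-β1 they were 21.2, 11.9 and 11.5 in WT and 654, 256 and 323 in PKN2 KO PSCs. The WT libraries with TGF-β1 lay far below the 9 others, from 12 to 18 reads each against 265 to 478 in PKN2 KO PSCs with TGF-β1.

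**Figure D1:**
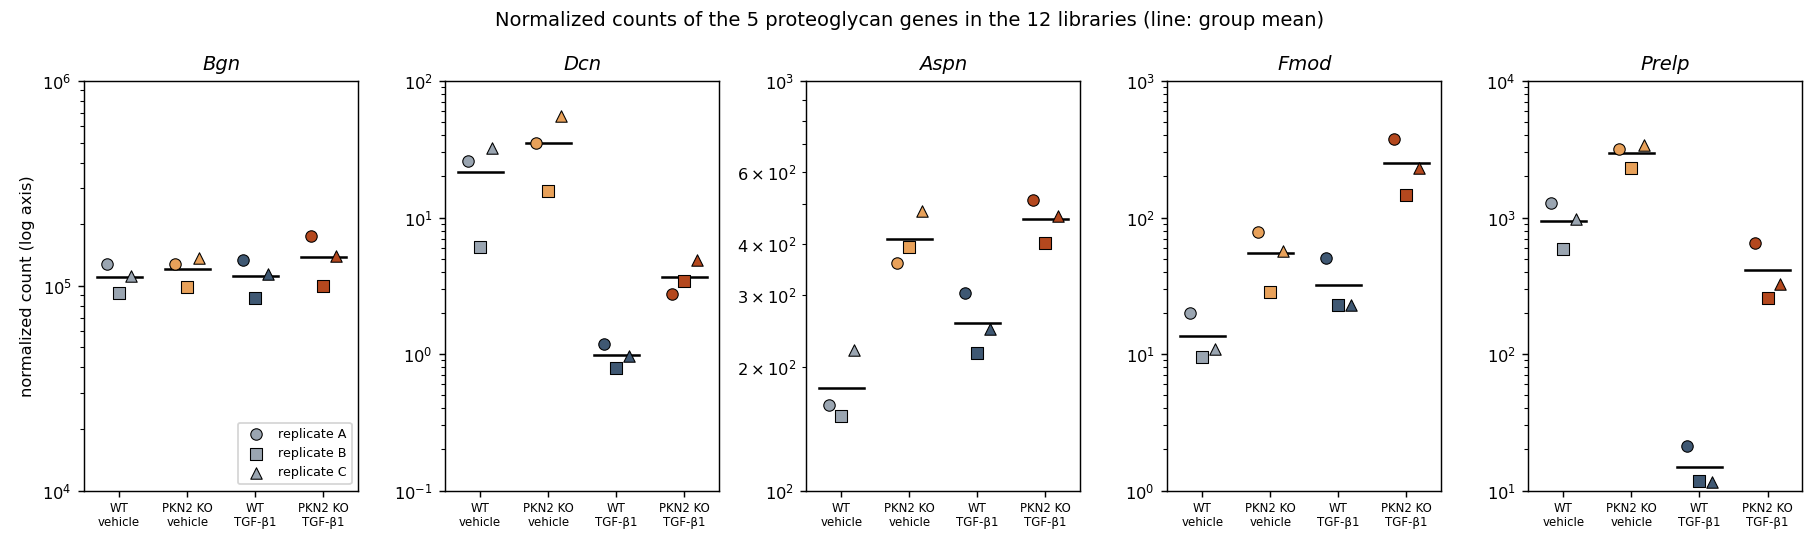
Normalized counts (log axis, a different range for each gene) of Bgn, Dcn, Aspn, Fmod and Prelp in the 4 groups of 3 libraries, with circles, squares and triangles for replicates A, B and C and a line for the group mean. Bgn stays between 87487 and 175416, Dcn and Prelp drop with TGF-β1, and Aspn and Fmod are higher in PKN2 KO PSCs.

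In vehicle, PKN2 KO PSCs had more Aspn, Fmod and Prelp transcript than WT PSCs. Of the 5 members, 3 were higher at an adjusted p-value under 0.05 from limma, where 10.9% of all 238 genes were. Changes are on the scale of log2(normalized count + 1), which understates those of low genes, and these are bulk libraries, in which fewer cells of a type and less RNA per cell cannot be told apart. Aspn rose from 178 ± 36.7 to 411 ± 63.1 (SD, n = 3; log2 fold change 1.21, SE 0.20, limma adjusted p = 0.0013). Fmod rose from 13.5 ± 5.76 to 54.7 ± 25.2 (log2 fold change 1.90, SE 0.47, limma adjusted p = 0.015). Prelp rose from 947 ± 345 to 2969 ± 565 (log2 fold change 1.70, SE 0.35, limma adjusted p = 0.0047). For these genes the lowest PKN2 KO library exceeded the highest WT library. How many other panel genes separated so, here or in the other comparisons, was not counted.

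The pair of class I genes that carry sulfated chains did not pass. Bgn was 110927 ± 18090 in WT and 120943 ± 20021 in PKN2 KO PSCs, a log2 fold change of 0.12 with a 95% interval of -0.43 to 0.68. Its sign turned with the scaling, to -0.11 with median of ratios scaling and -0.09 with TMM. Dcn was 21.5 ± 13.8 in WT and 35.3 ± 19.8 in PKN2 KO PSCs, a log2 fold change of 0.80 with an interval of -0.47 to 2.07, and the groups overlapped. Without WT vehicle replicate B the value for Dcn was 0.10, and over the fits that left out 1 library it ran from 0.10 to 1.28, passing in none. The median of the 5 members was 1.21, against 0.21 over all genes tested. The call of Fmod was lost without WT replicate C (log2 fold change 1.79, limma adjusted p = 0.062), PKN2 KO replicate A (1.58, 0.080) or PKN2 KO replicate C (1.81, 0.064), and those of Aspn and Prelp passed in all 12 fits that left out 1 library. Fits without a TGF-β1 library changed the shared spread but not these fold changes.

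After TGF-β1, the same 3 genes were higher in PKN2 KO PSCs, where 8.82% of all genes were. Prelp was 14.9 ± 5.52 in WT and 411 ± 213 in PKN2 KO PSCs, a 24.8-fold difference (95% interval 14.6 to 42.0, limma adjusted p = 4.5e-07) and the highest log2 fold change, 4.63, of the 238 genes. Fmod was 32.2 ± 16.0 in WT and 251 ± 116 in PKN2 KO PSCs (log2 fold change 2.92, SE 0.47, limma adjusted p = 5.9e-04), the next highest. Aspn was 257 ± 44.2 in WT and 460 ± 54.9 in PKN2 KO PSCs (log2 fold change 0.85, SE 0.20, limma adjusted p = 0.0083). All 3 calls held in each of the 12 fits that left out 1 library. Fits without a vehicle library changed the shared spread but not these fold changes.

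Dcn with TGF-β1 rested on 3 reads in WT and 10 reads in PKN2 KO PSCs. The genotypes did not overlap, but the log2 fold change of 1.22 did not pass (limma adjusted p = 0.19), and the ratio was 3.87 with a counting interval of 0.997 to 21.9. Intervals on reads cover counting error only. Bgn was 111591 ± 23178 in WT and 138640 ± 37597 in PKN2 KO PSCs, a log2 fold change of 0.30 (limma adjusted p = 0.53). With total count scaling its value was 0.29 with a smaller spread, and it passed (limma adjusted p = 0.0094). The median of the 5 members was 1.22, against 0.13 over all genes.

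**Figure D2:**
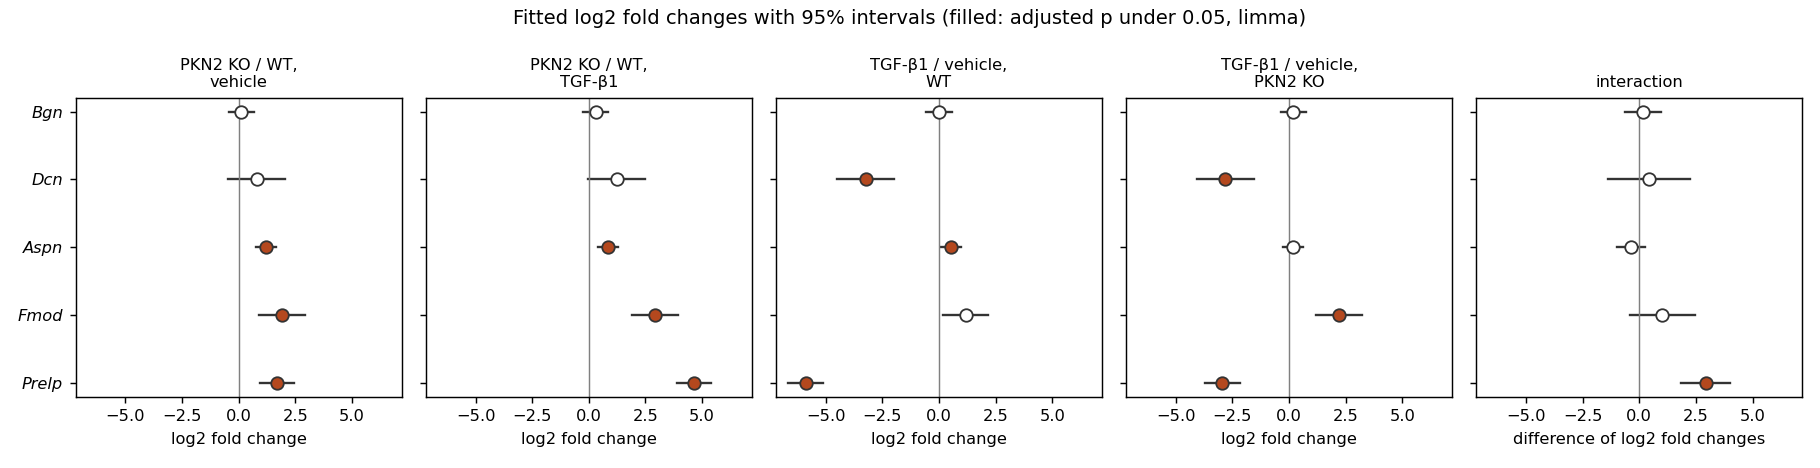
Fitted log2 fold changes of the 5 genes (points) with 95% intervals (lines) in the 4 comparisons, and their interaction as a difference of log2 fold changes, with filled points at an adjusted p-value under 0.05. Aspn, Fmod and Prelp are filled in both comparisons of genotype, Dcn and Prelp lie left of 0 in both comparisons of TGF-β1, and only Prelp is filled for the interaction, at 2.93.

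In WT PSCs, TGF-β1 lowered Prelp and Dcn, and Aspn passed as higher, though less firmly. Of the 5 members, 1 was higher and 2 were lower, where 23.9% of all genes were higher and 26.9% were lower. Prelp fell by 5.88 on the log2 scale (SE 0.35, limma adjusted p = 6.8e-09), with a ratio of vehicle to TGF-β1 of 61.7 (reads over the factors, counting interval 46.0 to 84.8). Dcn fell by 3.24 on the log2 scale (SE 0.59, limma adjusted p = 2.9e-04), with a ratio of vehicle to TGF-β1 of 20.1 (counting interval 6.59 to 100.2) from 3 reads with TGF-β1. Aspn rose from 178 ± 36.7 to 257 ± 44.2 (log2 fold change 0.53, SE 0.20, limma adjusted p = 0.037), although WT replicate C with vehicle lay above WT replicate B with TGF-β1.

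The call of Aspn in WT PSCs was the least firm. It was lost without WT vehicle replicate A or B, WT TGF-β1 replicate A or C, or PKN2 KO TGF-β1 replicate C, with log2 fold changes of 0.40 to 0.55 and adjusted p-values of 0.052 to 0.14 from limma. With total count scaling its log2 fold change was 0.28 (limma adjusted p = 0.25). The call held in 9 of the 12 alternatives that kept all libraries. Fmod lay at the threshold, with 13.5 ± 5.76 in vehicle and 32.2 ± 16.0 with TGF-β1, groups that did not overlap (log2 fold change 1.17, SE 0.47, limma adjusted p = 0.051). It passed under each other scaling (limma adjusted p = 0.032 with TMM, 0.038 with the median of ratios and 0.038 with the total count). Bgn had a log2 fold change of 0.00 with an interval of -0.55 to 0.56. With total count scaling it was -0.25 (limma adjusted p = 0.0094), the same as the median of all genes on that scale.

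In PKN2 KO PSCs, TGF-β1 lowered Prelp and Dcn and raised Fmod. Of the 5 members, 1 was higher and 2 were lower, where 19.7% of all genes were higher and 29.0% were lower. Prelp fell by 2.95 on the log2 scale (SE 0.35, limma adjusted p = 6.8e-06), with a ratio of vehicle to TGF-β1 of 7.48 (counting interval 7.01 to 7.98). Dcn fell by 2.81 on the log2 scale (SE 0.59, limma adjusted p = 0.0012), with a ratio of vehicle to TGF-β1 of 8.79 (counting interval 4.59 to 18.9). Fmod rose from 54.7 ± 25.2 to 251 ± 116 (log2 fold change 2.19, SE 0.47, limma adjusted p = 0.0014). For these 3 genes the groups did not overlap, though how many other panel genes separated so was not counted. The 3 calls held in each of the 12 fits that left out 1 library. Fits without a WT library changed the shared spread but not these fold changes.

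Aspn and Bgn did not pass in PKN2 KO PSCs. Aspn was 411 ± 63.1 in vehicle and 460 ± 54.9 with TGF-β1, a log2 fold change of 0.17 with an interval of -0.26 to 0.59. Bgn was 120943 ± 20021 and 138640 ± 37597, a log2 fold change of 0.17 with an interval of -0.38 to 0.73. The median of the 5 members was 0.00 in WT and 0.17 in PKN2 KO PSCs, against 0.00 and -0.14 over all genes. Leukocyte markers also had lower sums with TGF-β1, at 190.8 to 378 in vehicle libraries and 46.6 to 84.8 in TGF-β1 libraries. Of the 8 markers 2 passed the filter, Itgb7 and Itgb2, and Itgb7 alone had 174.5 to 344 in vehicle and 38.7 to 78.0 with TGF-β1. Itgal was at 0 in all libraries and Itgam at 1.17 or less. Endothelial markers passed for 3 of 8 genes and summed to 13.0 to 24.0 in vehicle and 33.0 to 51.9 with TGF-β1, with Sele at 0 in all libraries and Cdh5 at 0 outside WT PSCs with TGF-β1. The part of either in the falls of Dcn and Prelp was not tested.

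The response of Prelp to TGF-β1 differed between genotypes. The interaction for this gene was 2.93 (log2, SE 0.50, limma adjusted p = 0.011), the highest of the 238 genes, of which 3.36% had a called interaction in either direction. The fall in PKN2 KO PSCs was thus the smaller by 2.93, and each PKN2 KO library with TGF-β1 kept at least 256 normalized counts. The call was lost without PKN2 KO vehicle replicate B (2.77, limma adjusted p = 0.054) or WT TGF-β1 replicate C (2.79, 0.052).

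For the 4 other members the interaction did not pass. It was 1.02 for Fmod with an interval of -0.41 to 2.45 (limma adjusted p = 0.61), and -0.36 for Aspn with an interval of -0.97 to 0.24. For Dcn it was 0.43 with an interval of -1.37 to 2.22, and for Bgn 0.17 with an interval of -0.61 to 0.96. The intervals of Fmod and Dcn leave room for differences of more than 2-fold, so equal responses were not shown.

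**Figure D3:**
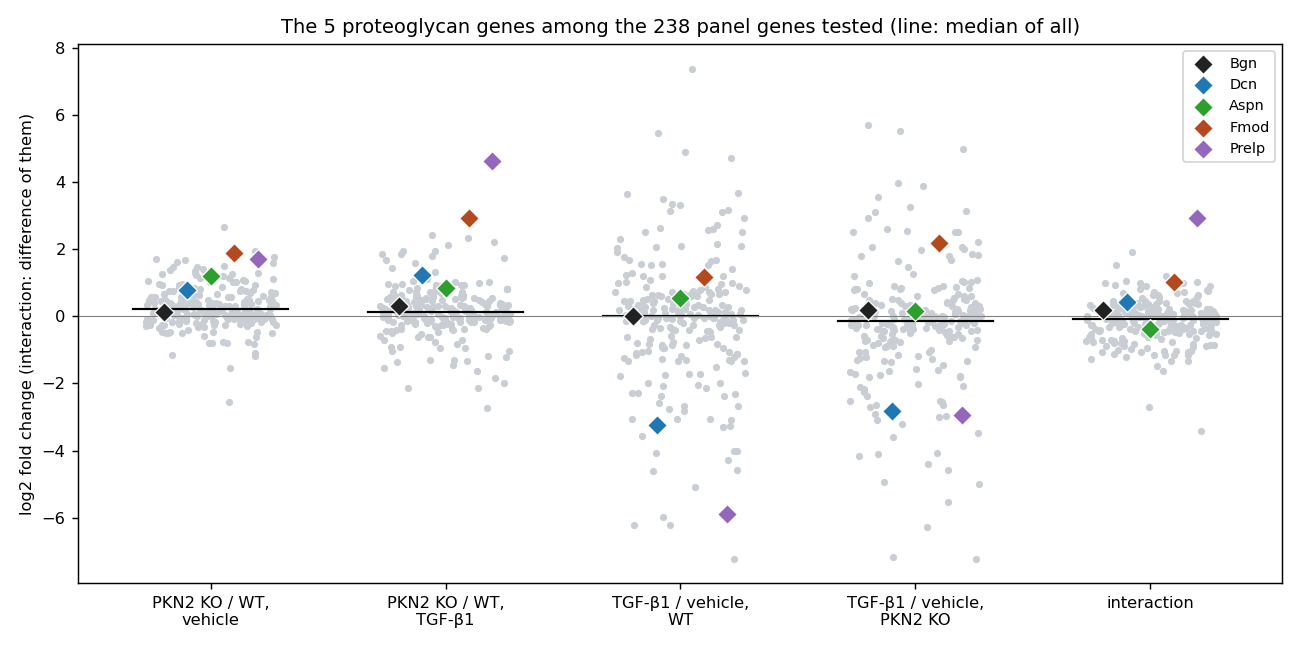
Log2 fold changes of the 238 panel genes tested in each comparison and for the interaction (grey points, spread sideways at random), with the median as a line and the 5 SLRP genes as coloured diamonds. Prelp is the highest point for PKN2 KO against WT with TGF-β1, at 4.63, and for the interaction, at 2.93, while Bgn stays near the median.

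Fmod and Prelp, neighbours on chromosome 1, moved apart under TGF-β1. Apart from the pseudocount, the ratio of the pair within a library does not depend on how that library was scaled. Only changes of such a ratio can be read, because the level of each gene depends on its own primers. In vehicle, the log2 ratio of Fmod over Prelp was -6.03 ± 0.28 in WT and -5.83 ± 0.49 in PKN2 KO PSCs, which overlapped (difference 0.20, exact permutation p = 0.5, two-sided). With TGF-β1 it was 1.02 ± 0.17 in WT and -0.70 ± 0.18 in PKN2 KO PSCs. It rose by 7.05 in WT and 5.14 in PKN2 KO PSCs. With TGF-β1, the difference of PKN2 KO from WT PSCs was -1.71. Groups did not overlap in these 3 comparisons, each with an exact permutation p = 0.1, the smallest that 3 libraries against 3 allow.

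Ratios against Dcn, the member closest to its counting limit, were wider. The log2 ratio of Bgn over Dcn was 12.5 ± 1.02 in WT and 11.9 ± 0.65 in PKN2 KO PSCs with vehicle, and 15.8 ± 0.17 and 14.8 ± 0.59 with TGF-β1. That of Aspn over Dcn was 3.25 ± 1.03 and 3.66 ± 0.80 with vehicle, and 7.02 ± 0.10 and 6.64 ± 0.41 with TGF-β1. Libraries with TGF-β1 were above those with vehicle for both ratios in both genotypes (exact permutation p = 0.1 in each of the 4). The 12 comparisons of ratios form 1 family, in which no p-value can pass 0.05. Between genotypes, Bgn over Dcn overlapped in vehicle and did not overlap with TGF-β1, and Aspn over Dcn overlapped in both. In WT PSCs with TGF-β1 both ratios rest on 1 Dcn read in each library.

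**Figure D4:**
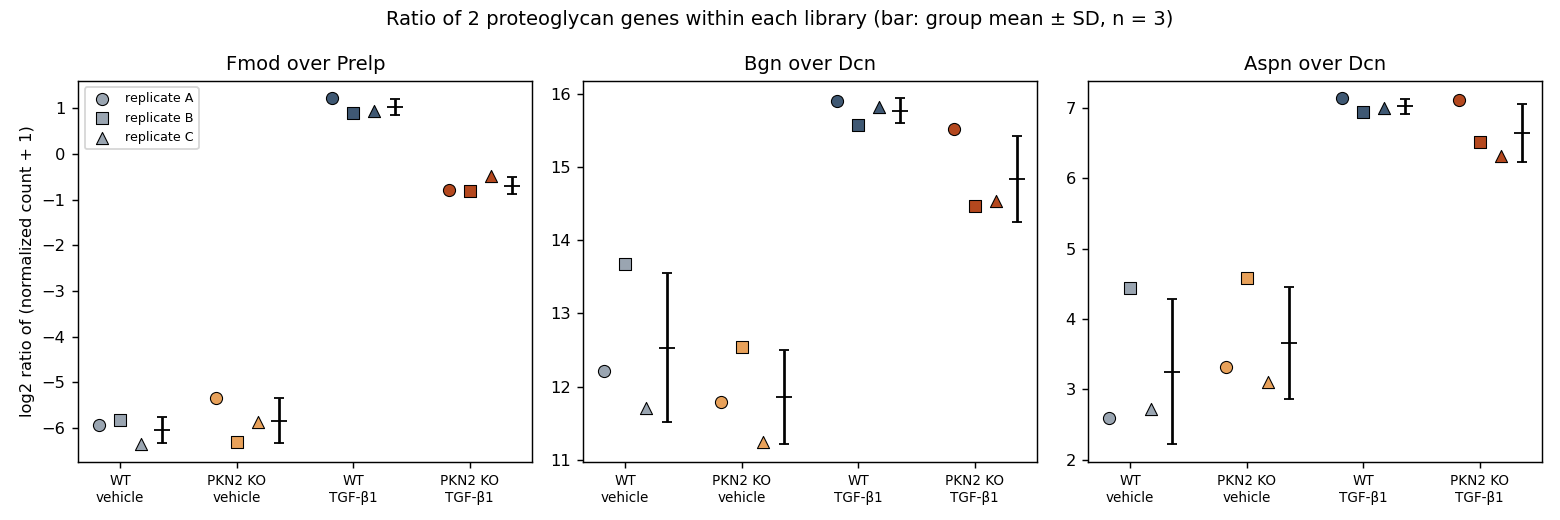
Log2 ratio of (normalized count + 1) between pairs of SLRP genes within each of the 12 libraries, for Fmod over Prelp, Bgn over Dcn and Aspn over Dcn (a separate axis for each), with circles, squares and triangles for replicates A, B and C and the group mean ± SD beside them. Fmod over Prelp goes from -6.03 to 1.02 in WT and from -5.83 to -0.70 in PKN2 KO PSCs.

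Across the 12 libraries, the members fell into patterns that the classes do not follow. Pearson's r of log2(normalized count + 1) was 0.89 for Dcn and Prelp, 0.84 for Aspn and Fmod, and 0.10 for Fmod and Prelp. These are descriptions over 12 libraries that share group means, scaling factors and, for each gene, the same 4 treatments. The genes most like Bgn were Mmp2 (gelatinase A, r = 0.97), Serpinf1 (pigment epithelium-derived factor, 0.94) and Col1a1 (0.89). Those most like Dcn were Col14a1 (the chain of the fibril-associated collagen XIV, 0.96), Adamts2 (procollagen N-proteinase, 0.95) and Sgce (epsilon-sarcoglycan, 0.95). Col14a1 had a mean normalized count of 10.4 in WT and 21.1 in PKN2 KO PSCs with vehicle, and it was listed at 0 in WT PSCs with TGF-β1.

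The genes most like Prelp were Mmp28 (epilysin, r = 0.98), Serping1 (C1 inhibitor, 0.97) and Adgre5 (the adhesion receptor CD97, 0.97). Serping1 had means of 165.6 and 450.2 in WT and PKN2 KO PSCs with vehicle and of 31.6 and 181.5 with TGF-β1. Those most like Fmod were Col6a3 (collagen VI, 0.93), the adhesion molecule L1cam (0.91) and the cell-surface proteoglycan Gpc1 (0.88). Those most like Aspn were L1cam (0.85), Col4a1 (basement membrane collagen IV, 0.85) and Fmod (0.84). Col6a3 had means of 4517 and 9875 in WT and PKN2 KO PSCs with vehicle and of 10241 and 18026 with TGF-β1, so it was highest in the same group as Fmod.

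The relatives next to the members were low. Lum, lumican, had 7 reads in WT and 2 reads in PKN2 KO PSCs with vehicle and 0 reads in both groups with TGF-β1, where a count of 0 allows up to 3 reads, and it was not tested. Ecm2, the neighbour of Aspn, ranged from 8.26 to 43.8 normalized counts and did not pass in any comparison. Its log2 fold change between genotypes in vehicle was 0.76 (limma adjusted p = 0.37), against 1.21 for Aspn. Ogn, Omd, Kera, Epyc and Optc, the other SLRP genes of these clusters, were not among the genes listed.

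Of the 16 fibril collagens that SLRPs coat and their partners on the panel, 15 were tested. In vehicle 1 was higher and 2 were lower in PKN2 KO PSCs (median 0.10, against 0.21 over all genes), where 10.9% of the panel was higher and 2.94% lower. With TGF-β1 none was higher and 2 were lower (median -0.01, against 0.13), where 8.82% was higher and 6.30% lower. These counts with TGF-β1 depended on the scaling, with 0 higher and 4 lower under TMM, 1 and 3 under median of ratios, and 4 and 2 under total count scaling, while Col2a1 and Col11a1 were lower under each. Col6a3 rose in vehicle by 1.15 on the log2 scale (limma adjusted p = 0.016). Col2a1, the collagen of cartilage, had log2 fold changes of -1.54 in vehicle and -1.99 with TGF-β1 (limma adjusted p = 7.0e-05 and 9.9e-07). Col11a1, its fibril partner, had -0.78 and -1.53 (adjusted p = 0.0068 and 2.4e-05), also lower in PKN2 KO PSCs. TGF-β1 raised 6 and lowered 4 in WT PSCs (median 0.44, against 0.00), where 23.9% of the panel rose and 26.9% fell. It raised 5 and lowered 5 in PKN2 KO PSCs (median 0.18, against -0.14, and -0.01 under total count scaling), where 19.7% rose and 29.0% fell. Col5a3, a chain of the collagen V that starts fibrils, rose by 2.50 and 2.20, and Col27a1 by 3.30 and 2.51. Col2a1 fell, with log2 fold changes of -2.77 in WT and -3.22 in PKN2 KO PSCs (limma adjusted p = 6.8e-09 and 1.8e-09). With TMM and median of ratios scaling the list's median in vehicle turned below 0, to -0.11 and -0.13.

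Of 13 genes for fibril processing and cross-linking 11 were tested. In vehicle Lox, lysyl oxidase, was 11754 ± 2613 in WT and 15092 ± 2489 in PKN2 KO PSCs, without passing (limma adjusted p = 0.43), though it passed with total count scaling (adjusted p = 0.038). With TGF-β1, 2 were lower in PKN2 KO PSCs, the procollagen N-proteinase Adamts14 by a log2 fold change of -1.64 and the lysyl oxidase relative Loxl2 by -1.34 (adjusted p = 8.5e-05 and 0.018). Of the panel 6.30% was lower in PKN2 KO PSCs with TGF-β1. The median over the 11 was 0.08 in vehicle and 0.00 with TGF-β1, against 0.21 and 0.13 over all genes. In vehicle the median of the 11 was -0.13 under TMM and -0.15 under median of ratios scaling. TGF-β1 raised 3 and lowered 2 in WT PSCs (median 0.18), and raised 1 and lowered 4 in PKN2 KO PSCs (median 0.16). Over the panel 23.9% rose and 26.9% fell in WT, and 19.7% and 29.0% in PKN2 KO PSCs. In PKN2 KO PSCs TGF-β1 raised 4 and lowered 4 of the 11 under TMM, and 5 and 4 under median of ratios scaling. Under total count scaling these were 3 and 5, and in WT PSCs they were 3 and 2 under each scaling. With total count scaling the medians were -0.07 in WT and -0.03 in PKN2 KO PSCs, against -0.25 and -0.34 over all genes. Plod2, which hydroxylates lysines used in cross-links, rose by 1.68 in WT and 1.83 in PKN2 KO PSCs. Adamts2 had log2 fold changes of -0.83 in WT and -0.75 in PKN2 KO PSCs, both called. The fall of Adamts14 with TGF-β1 differed between genotypes (interaction -1.33, limma adjusted p = 0.026), a call that was lost with total count scaling (adjusted p = 0.069).

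Proteases known to cut proteoglycans responded to TGF-β1 in both directions, 4 higher and 3 lower of 8 tested in WT and likewise in PKN2 KO PSCs (medians 0.66 and 0.62), as did the whole panel, with 23.9% higher and 26.9% lower in WT and 19.7% and 29.0% in PKN2 KO PSCs. Adamts5, an aggrecanase, fell by 4.61 on the log2 scale in WT and fell by 4.17 in PKN2 KO PSCs, while Adamts4, its relative, rose by 1.91 and 2.06. Mmp9, gelatinase B, was 0.329 ± 0.569 in WT and 1.25 ± 1.18 in PKN2 KO PSCs with vehicle, and 216 ± 67.9 and 31.8 ± 12.0 with TGF-β1. Between genotypes 1 of 8 was lower in vehicle, Adamts5 by a log2 fold change of -1.15 (limma adjusted p = 0.0086), and 1 with TGF-β1, Mmp9 by -2.74 (adjusted p = 0.0015). Over the panel 2.94% and 6.30% were lower. Under TMM 2 of the 8 were lower in vehicle and under median of ratios scaling 3, and with TGF-β1 2 were lower under all 3 other scalings, where Adamts5 passed too (log2 fold change -0.71 as deposited, limma adjusted p = 0.092, and at most 0.0090 under the others). The medians over the 8 were -0.01 and -0.02. Mmp9 had a called interaction of -3.41 (limma adjusted p = 0.026), of the opposite sign to that of Prelp and with vehicle libraries near 0.

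Among other proteoglycans and link proteins 5 of 14 were tested. Gpc1, glypican-1, rose in PKN2 KO PSCs with vehicle from 142 ± 7.55 to 278 ± 57.1 (log2 fold change 0.95, limma adjusted p = 0.0038), and had 331 ± 26.2 in WT and 494 ± 74.0 in PKN2 KO PSCs with TGF-β1 (0.57, adjusted p = 0.057). It was the 1 gene of the list called between genotypes as deposited (medians 0.39 in vehicle and -0.03 with TGF-β1). Of the panel 10.9% was higher in vehicle and 8.82% with TGF-β1, with medians of 0.21 and 0.13. With total count scaling 3 of the 5 were higher in vehicle, Gpc1, the basement membrane proteoglycan gene Hspg2 (limma adjusted p = 0.0029) and Vcan (0.034), and Gpc1 passed with TGF-β1 too (0.045). TGF-β1 raised 3 of the 5 in WT PSCs, Gpc1, Cd44 and Vcan, and 2 in PKN2 KO PSCs, Gpc1 and Cd44 (medians 0.72 and 0.18). Of the panel 23.9% and 19.7% rose, with medians of 0.00 and -0.14. With total count scaling TGF-β1 raised 3 and lowered 1 of the 5 in WT PSCs. In PKN2 KO PSCs it raised 2 and lowered 2 on that scale, with a median of -0.02, against -0.34 over all genes. Vcan, the large proteoglycan versican, rose by 0.72 in WT PSCs (limma adjusted p = 0.013).

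Genes known to respond to TGF-β, 7 of 7 tested, were raised by it in 5 cases in WT and 2 in PKN2 KO PSCs (medians 1.28 and 0.49). Of the whole panel 23.9% and 19.7% were raised, with medians of 0.00 and -0.14. Under TMM, median of ratios and total count scaling alike, 5 of the 7 were raised in WT and 4 in PKN2 KO PSCs. Tnc, tenascin-C, rose by 3.18 and 3.27. Between genotypes 3 were lower with TGF-β1, among them Ccn2 with a log2 fold change of -1.17 and Thbs1 with -0.90 (limma adjusted p = 0.0017 and 0.011), and the median was -0.28 with TGF-β1 and 0.09 in vehicle, where it was -0.12 under TMM and -0.14 under median of ratios scaling. Of the panel 6.30% was lower with TGF-β1, and its medians were 0.13 with TGF-β1 and 0.21 in vehicle. Ccn2 had a called interaction of -1.26 (limma adjusted p = 0.039), which was lost with total count scaling (adjusted p = 0.066).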

How the data were processed

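RNA from 12 PSC samples was made into libraries with the QIAseq targeted panel and sequenced on an Illumina MiSeq. The authors counted reads per gene with the Qiagen pipeline (per the labels, genome mm10, with STAR also listed), and deposited 1 table of raw counts and 2 of normalized counts for 420 genes. The deposited normalized values, a signal that is never negative, are counts divided by 1 factor per library from pre-determined reference genes (DESeq2 1.32). Vehicle and TGF-β1 libraries came in separate normalized sets, so comparisons of TGF-β1 with vehicle cross the 2 sets. Whether the sets were scaled together is not stated in the methods. Of the raw columns, 6 stand under repeated names and were not used. Division by the step of each library gave whole reads within 0.1 of a read, equal to the 6 raw columns used. Those columns were WT PSCs with vehicle and PKN2 KO PSCs with TGF-β1. Recovered reads of PKN2 KO PSCs with vehicle and WT PSCs with TGF-β1 were not compared with raw columns.

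Values were tested as log2(normalized count + 1) with limma 3.58.1 (1 mean per group, trend and robust) over the 238 genes with at least 10 in at least 3 libraries, with Benjamini-Hochberg adjustment and a threshold of 0.05. Alternatives were TMM, median of ratios and total count scaling, edgeR 4.0.16 and DESeq2 1.42.0 on recovered reads, other filters and pseudocounts, no trend, the replicate letter as a block, and each library left out. The fit was tested on simulated data. Named genes were the members, Lum, Ecm2, the 3 most correlated genes per member, and up to 3 genes per list with the smallest adjusted p. The members and lists were chosen with earlier results of these data known. Counts depend on primers, so levels were not compared between genes.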

Additional observations from a re-analysis of the deposited data

Results flagged for a closer look

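The response of Prelp to TGF-β1 differed between WT and PKN2 KO PSCs by an interaction of 2.93 (log2, SE 0.50, limma adjusted p = 0.011), a test of the difference itself. Prelp went from 947 ± 345 to 14.9 ± 5.52 normalized counts in WT and from 2969 ± 565 to 411 ± 213 in PKN2 KO PSCs (SD, n = 3), and every library with TGF-β1 was below every library with vehicle in both. The WT value with TGF-β1 rests on 45 reads in all. Groups of 3 libraries were not tested for single outlying libraries.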

How the results depend on the processing

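With each library left out in turn, the number of members called was 2 to 3 and 3 to 3 between genotypes in vehicle and with TGF-β1, 2 to 4 and 3 to 3 for TGF-β1 in WT and PKN2 KO PSCs, and 0 to 1 for the interaction. With at least 10 normalized counts in every library, 1 member was called for TGF-β1 in PKN2 KO PSCs against 3, because Dcn and Fmod then left the fit. The calls of Aspn, Fmod and Prelp between genotypes held under every other scaling, count test, pseudocount and filter that kept the gene. Of the fold changes of single members, 269 kept direction and side of the threshold under the alternatives that kept all libraries, 10 newly passed, 3 no longer passed and 8 changed sign. With 1 library left out these counts were 277, 6, 10 and 7. Where that library belonged to neither group compared, its loss changed the shared spread and not the fold change. Signs turned for values of Bgn and Aspn near 0, and for the interaction of Dcn, which was 0.43 (SE 0.84). Between genotypes in vehicle, Bgn was -0.090 under TMM and -0.11 under median of ratios scaling, and -0.0022 to 0.27 with 1 library left out, below 0 without WT vehicle replicate B. For TGF-β1 in WT PSCs it was -0.033, -0.042 and -0.25 with TMM, median of ratios and total count scaling, and -0.14 to 0.16 with 1 library left out, below 0 without WT vehicle replicate B, WT TGF-β1 replicate A or WT TGF-β1 replicate C. For TGF-β1 in PKN2 KO PSCs, Bgn was -0.024 and Aspn -0.030 with total count scaling, and Bgn -0.014 to 0.39 with 1 library left out, below 0 without PKN2 KO TGF-β1 replicate A. The interaction of Bgn was -0.015 to 0.39, below 0 without that library. That of Dcn was -0.12 with a pseudocount of 5, and -0.054 to 1.12 with 1 library left out, below 0 without PKN2 KO vehicle replicate B.

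Ratios with Dcn depended on the pseudocount. Bgn over Dcn between genotypes with TGF-β1 was -1.60 with a pseudocount of 0 and -0.23 with 5, and Aspn over Dcn -1.04 and 0.31. With 5, Bgn over Dcn rose with TGF-β1 by 1.97 in WT and 2.26 in PKN2 KO PSCs, Aspn over Dcn by 2.49 in WT, and Fmod over Prelp by 6.52 in WT.

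The replicate letters share a name, and no source says that they pair libraries. Deviations of same-lettered libraries correlated at -0.03 to 0.70, over 0.1 in 8 of 12 pairs, and under it for C in every comparison. With the letter as a replicate block, calls over the panel rose from 33, 36, 121, 116 and 8 to 87, 101, 159, 153 and 42, and without the trend to 71, 90, 149, 138 and 17. The block with no trend called 2 members for the interaction, adding Fmod (1.02, limma adjusted p = 0.047). The block also called Fmod for TGF-β1 in WT PSCs (adjusted p = 9.7e-05) and Dcn between genotypes with TGF-β1 (adjusted p = 0.038). Its p-values are too small, with an infinite prior for 197 of 238 genes. Between genotypes with TGF-β1, TMM, median of ratios and total count scaling called 55, 55 and 65 panel genes. Dcn, at 1 to 4 reads with TGF-β1, is limited by depth.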
